A study of Mus musculus with 24 samples.

Results

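Ocstamp, Dcstamp, Atp6v0d2, Acp5, Ctsk, Mmp9, Nfatc1, Oscar, Calcr and Itgb3 are 10 genes best known from the osteoclast, the bone-resorbing cell that forms when precursors of the monocyte and macrophage lineage fuse. They were picked by name from the 55487 genes of the deposited table. Ocstamp led the choice because it was among the largest differences between genotypes on day 7, so the day 7 comparison of genotypes is described here with no test. Of the 10 genes, 8 passed the filter on low counts and entered the tests, and Oscar and Calcr did not.

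The measurements are messenger RNA counts from mouse bone-marrow-derived dendritic cells, taken to ask how control and Arpc4 KO cultures differ while they differentiate. Arpc4 is a subunit of the Arp2/3 complex, which nucleates branched actin filaments. Control mice (WT) had the genotype ARPC4 Flox/Flox CD11c-Cre -/- and KO mice ARPC4 Flox/Flox CD11c-Cre +/-, so both genotypes carry floxed Arpc4 alleles and differ in the Cre transgene. The CD11c promoter drives Cre, which confines deletion to cells that express CD11c. Marrow came from mice of both sexes aged 8 to 10 weeks and was grown in medium with GM-CSF. Cells were replated on days 4 and 7 of culture, and on days 7, 8, 9 and 10 the floating cells were collected while the attached ones were thrown away. Each of the 8 groups of 1 genotype and 1 day held 3 libraries, labelled with WT mice 63, 65 and 66 or KO mice 64, 67 and 68, which gives 24 libraries from 6 mice with 19952047 to 31049798 counts each.

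In the osteoclast lineage, RANKL from bone-forming and stromal cells acts on its receptor RANK, and a second signal runs through adaptor-coupled receptors such as OSCAR. Both raise the transcription factor NFATc1, which switches on genes for fusion, acid secretion and matrix breakdown. DC-STAMP and OC-STAMP are membrane proteins needed for cell fusion. Atp6v0d2 encodes a subunit of the proton pump that has also been tied to fusion. Acp5 encodes tartrate-resistant acid phosphatase, Ctsk the collagen-degrading protease cathepsin K, and Mmp9 a secreted gelatinase. Itgb3 encodes the integrin beta 3 chain by which osteoclasts hold on to bone, and Calcr the calcitonin receptor, a late osteoclast marker. Several of these genes are also read in macrophages and dendritic cells.

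Before the members, the labels were read against the data. Arpc4 stood lower in KO than in WT on every day without overlap, at 169, 228, 201 and 181 CPM (read counts as a share of the library's total, scaled for library composition) on days 7 to 10 in KO against 192, 260.2, 228 and 219.9 CPM in WT (group means, n = 3 each). Counts are per gene, so reads from the floxed part were not separated from the rest. Ddx3y, a Y-linked gene, was high in 1 library of each group. In WT that library carried number 63 on all days, whereas in KO it carried number 64 on days 7 and 9, number 68 on day 8 and number 67 on day 10. The KO mouse numbers therefore do not follow 1 animal through time, while the genotype and day of each library are not touched by this. Fits with mouse as a replicate block, and counts summed per mouse, were also made with an exchange of KO numbers, 64 with 68 on day 8 and 64 with 67 on day 10, which puts high Ddx3y on number 64 throughout. Ddx3y does not settle the order of the other 2 KO mice, so the block was fitted in all 8 orders that keep it on number 64, and the sums of days 8 to 10 in the 4 of them that differ there. Values with KO numbers exchanged are given as the range over these orders, and single values as those of the exchange just named. It and the other orders were chosen after seeing the data. Values with a number left out use the numbers as labelled. Library kits of 2 kinds are named in the labels without saying which library had which, so kit and group cannot be told apart.

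Of the listed receptors, the late marker Calcr was absent and Oscar was near the floor. Calcr had 0 counts in all 24 libraries, where a floor of 3 counts corresponds to 0.0873 to 0.145 CPM. Oscar had 0 to 6 counts per library, 51 in all, and 7 libraries were at 0. Oscar reached 0.178 CPM at most in WT and 0.179 CPM at most in KO, both on day 10. With Calcr unread and Oscar at this level, the name osteoclast is used below only for the gene list and not for the cells.

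Levels of different genes were compared in TPM, the deposited measure of transcript share that takes gene length into account. The median TPM over the 24 libraries was 1048 for Atp6v0d2, 128 for Acp5, 77.5 for Mmp9 and 48.1 for Ctsk. It was 34.9 for Nfatc1, 33.5 for Dcstamp and 26.4 for Itgb3. Ocstamp stood far below these at 1.57 TPM, with 14 to 186 counts per library, and Oscar had a median of 0.135 TPM. The proton pump subunit was thus the most abundant transcript of the list in these cells and the fusion gene Ocstamp the scarcest of the 8 tested.

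**Figure D1:**
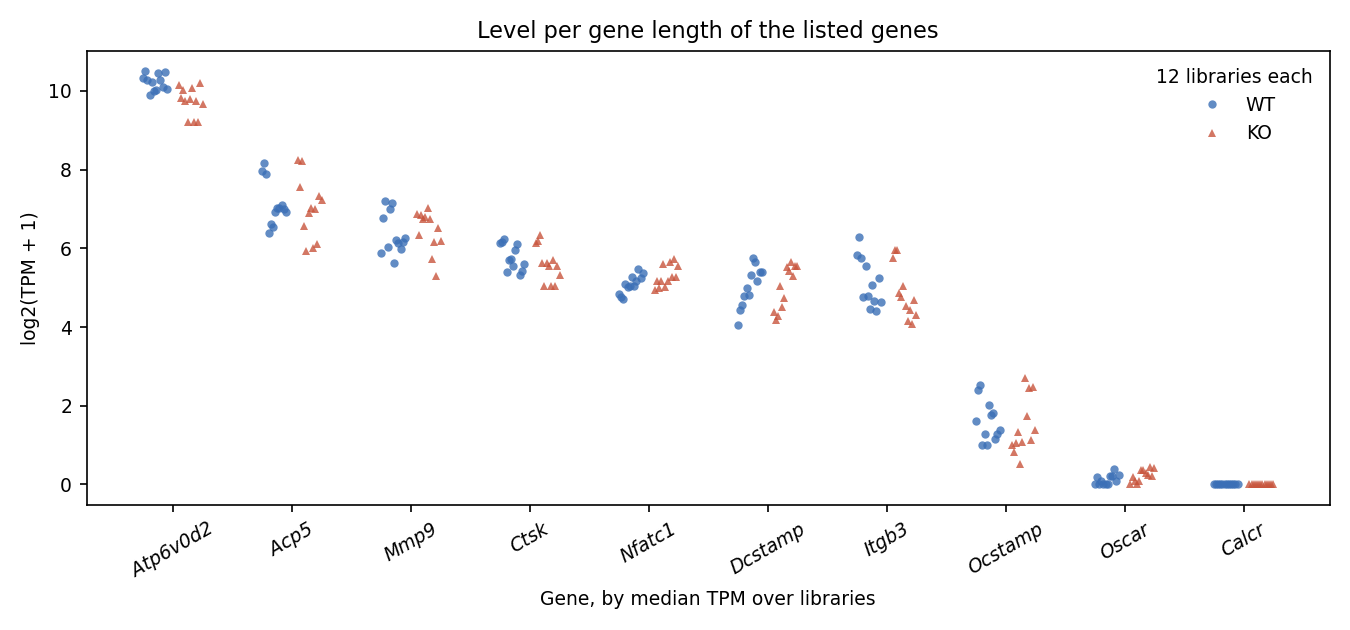
Level per gene length of the 10 genes, as log2(TPM + 1) on the vertical axis, with 12 WT libraries (circles) and 12 KO libraries (triangles) per gene, ordered from left to right by day within each genotype. Atp6v0d2 lies at the top with a median of 1048 TPM, Ocstamp has a median of 1.57 TPM, and Calcr is at 0 in every library.

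All 10 are protein-coding genes, placed here by GENCODE M21 on GRCm38 with coordinates counted from 1. Ocstamp (ENSMUSG00000027670.4) lies at chr2:165393760-165400405 on the reverse strand with 3 exons. Acp5 (ENSMUSG00000001348.15) lies at chr9:22126727-22135711 on the reverse strand with 9 exons, and Ctsk (ENSMUSG00000028111.4) at chr3:95499256-95509362 on the forward strand with 8 exons. Atp6v0d2 (ENSMUSG00000028238.6) spans chr4:19876841-19922605, Dcstamp (ENSMUSG00000022303.9) chr15:39745930-39760938, Mmp9 (ENSMUSG00000017737.2) chr2:164940780-164955850 and Itgb3 (ENSMUSG00000020689.4) chr11:104608000-104670476. The antisense gene 6530413G14Rik overlaps Acp5 and had 0.105% as many counts as Acp5. An antisense gene within Nfatc1, AC123818.1, had 0.0794% as many counts as Nfatc1.

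Acp5 and Ctsk, described below, were called lower on day 8 than on day 7 in both genotypes, and a RefSeq promoter window (GRCm38.p6, 250 bases before to 50 after a start) is at hand for both. Windows of 300 bases matched 4 of the 10 genes (Ctsk, Acp5, Oscar and Calcr), 7 windows in all, and those of the other 6 genes are not given here. They were searched on both strands for AP-1 (TGANTCA), the NFAT core (GGAAA), the E-box bound by MITF (CATGTG) and PU.1 (GAGGAA), of which PU.1 and the NFAT core share the letters GGAA and can overlap. Capitals mark PU.1 and E-box matches, on either strand. NFAT cores are not marked because 61.3% of all 32851 windows hold one.
Ctsk promoter, chr3:95498960-95499259, forward strand: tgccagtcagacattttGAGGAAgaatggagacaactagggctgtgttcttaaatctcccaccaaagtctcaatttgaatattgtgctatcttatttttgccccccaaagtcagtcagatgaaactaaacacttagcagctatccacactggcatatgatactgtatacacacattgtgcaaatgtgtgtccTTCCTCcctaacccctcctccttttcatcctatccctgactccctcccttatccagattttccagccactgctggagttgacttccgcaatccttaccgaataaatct
Acp5 promoter (the most downstream of 3 starts), chr9:22130549-22130848, reverse strand: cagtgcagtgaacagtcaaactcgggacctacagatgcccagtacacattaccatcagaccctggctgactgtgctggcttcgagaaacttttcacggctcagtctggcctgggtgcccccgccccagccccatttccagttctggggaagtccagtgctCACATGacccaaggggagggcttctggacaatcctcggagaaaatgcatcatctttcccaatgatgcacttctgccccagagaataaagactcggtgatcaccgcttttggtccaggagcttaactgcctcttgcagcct
The Ctsk window holds 2 PU.1 matches, 233 and 58 bases before its RefSeq start, and 1 NFAT core. The Acp5 window holds 1 E-box match, 90 bases before its start, and 2 NFAT cores. The other 2 Acp5 windows hold 1 NFAT core each and no E-box, PU.1 or AP-1 match. Neither printed window holds an AP-1 match. Among all windows of this length 28.3% hold a PU.1 match, 14.2% the E-box and 7.81% an AP-1 match, so these letters are common, and a match is a description of the sequence and not a bound site.

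Per-library values below are in CPM and in the order of mice 63, 65 and 66 for WT and 64, 67 and 68 for KO. Tests are edgeR quasi-likelihood tests over all 14535 genes that passed the filter, with Benjamini-Hochberg adjusted p and a threshold of 0.05. The 3 libraries of a group come from separate mice, and libraries of different days share mice.

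**Figure D2:**
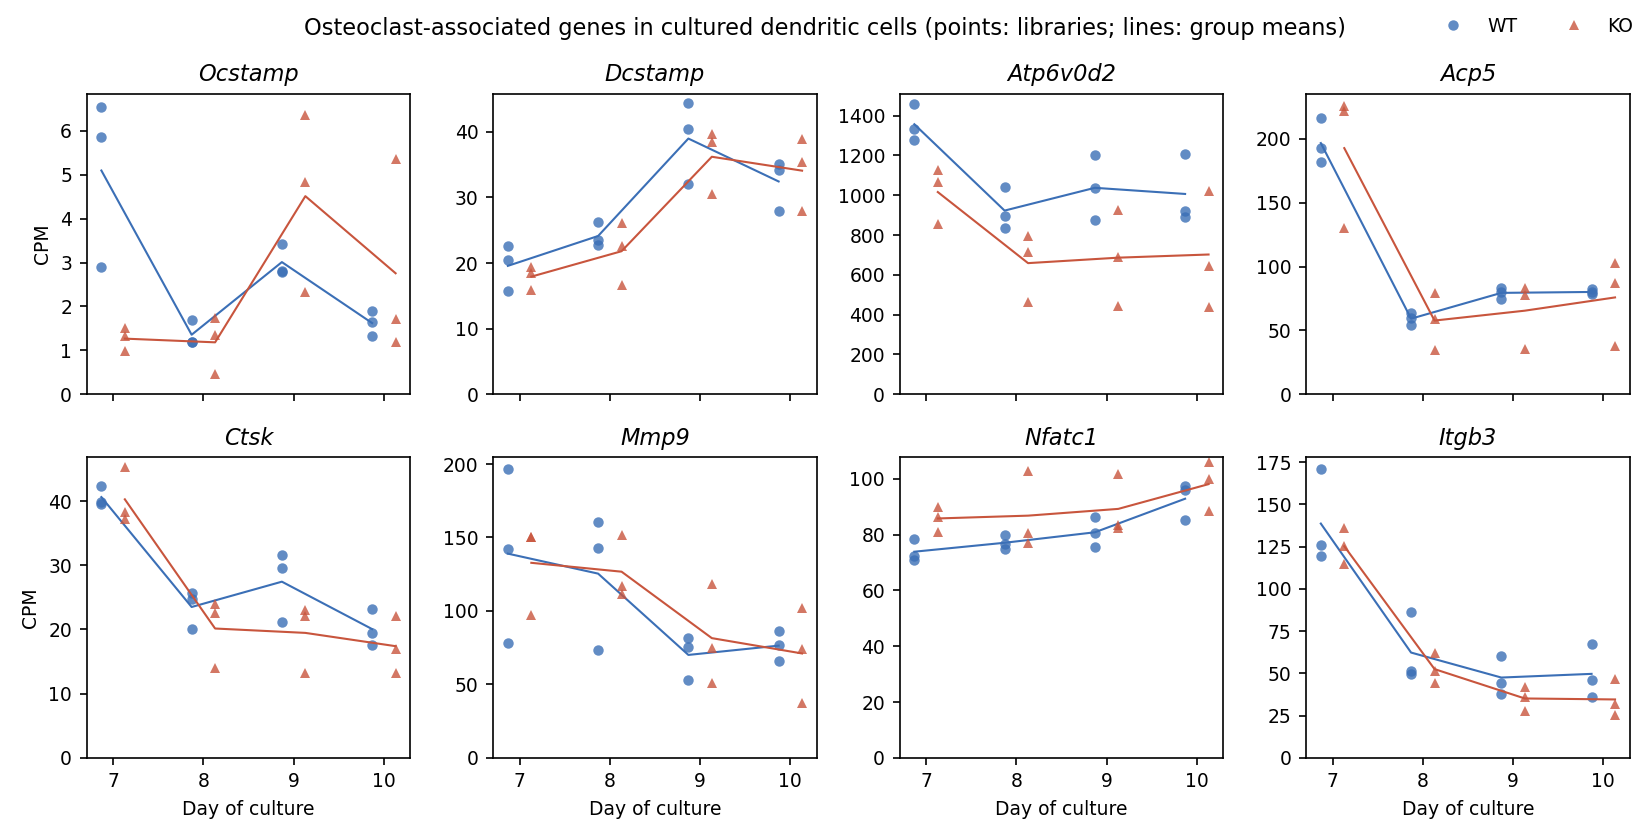
CPM of the 8 tested genes by day of culture, 3 WT (circles) and 3 KO (triangles) libraries per day, with lines joining the group means. Acp5, Ctsk and Itgb3 drop between days 7 and 8 in both genotypes, Dcstamp stands higher on day 10 than on day 7, and KO libraries of Ocstamp lie under those of WT on day 7 only.

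The fusion genes come first. Ocstamp in WT stood at 2.89, 5.85 and 6.55 CPM on day 7, at 1.19, 1.68 and 1.2 on day 8, at 3.42, 2.79 and 2.82 on day 9 and at 1.32, 1.65 and 1.90 on day 10. In KO it stood at 1.32, 0.986 and 1.5 CPM on day 7, at 1.73, 0.469 and 1.35 on day 8, at 6.37, 2.33 and 4.84 on day 9 and at 1.19, 5.36 and 1.71 on day 10. All 3 KO libraries of day 7 lay under all 3 WT libraries, and on days 8, 9 and 10 the genotypes overlapped. The day 7 difference, which chose the gene, was -2.0 on the log2 scale. Ordered by group mean, Ocstamp ran from WT day 7 (5.10 ± 1.9 CPM, SD) through KO day 9 (4.51 ± 2.0), WT day 9 (3.01 ± 0.36), KO day 10 (2.76 ± 2.3), WT day 10 (1.62 ± 0.29), WT day 8 (1.36 ± 0.28) and KO day 7 (1.27 ± 0.26) to KO day 8 (1.18 ± 0.65; n = 3 each). Every neighbouring pair in that order overlapped. A count of 14 in the lowest library leaves a sizeable counting error at this level.

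On the days that did not choose it, Ocstamp did not pass the edgeR threshold between genotypes. Its log2 fold change of KO over WT was -0.21 on day 8 (95% interval -1.31 to 0.89), 0.58 on day 9 (-0.39 to 1.55) and 0.75 on day 10 (-0.25 to 1.76). Their adjusted p were 0.99, 0.84 and 0.79. The day 10 value rested on the library labelled 67 and was -0.16 without that number, and the day 8 value was 0.20 without it. From day 8 to day 10 the log2 change of Ocstamp was 0.26 in WT (adjusted p 0.74) and 1.22 in KO (SE 0.50, adjusted p 0.079), and the KO value was -0.11 without number 67. Over the 15 alternative fits the KO value ran from -0.11 to 1.99 and was called in 4. In the replicate block with KO numbers exchanged it was called in 3 of the 8 orders (log2 1.04 to 1.15, adjusted p 0.013 to 0.075). Over the average of days 8 to 10 the log2 fold change of KO over WT was 0.37 (95% interval -0.22 to 0.97, adjusted p 0.53), and 0.15 with mouse as a replicate block. With counts of these days summed per labelled mouse, the WT sums of Ocstamp were 1.91, 2.07 and 1.99 CPM and its KO sums 3.13, 2.83 and 2.78 CPM (log2 0.55, adjusted p 0.049). With KO numbers exchanged the KO sums were 4.76, 1.42 and 2.85 CPM (adjusted p 0.65 to 0.81 over the 4 orders), so they lay on both sides of WT.

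Dcstamp, the better-known partner of Ocstamp, followed another course. WT libraries stood at 15.7, 20.4 and 22.6 CPM on day 7, 22.7, 26.2 and 23.4 on day 8, 32.1, 44.4 and 40.4 on day 9 and 28.0, 34.1 and 35.2 on day 10. KO libraries stood at 19.4, 15.9 and 18.5 CPM on day 7, 26.1, 16.7 and 22.6 on day 8, 38.4, 30.5 and 39.6 on day 9 and 27.9, 38.9 and 35.4 on day 10. Day 10 lay above day 7 in both genotypes without overlap, and the genotypes overlapped on every day. Dcstamp rose from day 7 to day 10 by 0.73 on the log2 scale in WT (SE 0.17, edgeR adjusted p 0.0022) and by 0.93 in KO (SE 0.17, adjusted p 0.00031). From day 8 to day 10 it rose in KO (0.64, SE 0.17, adjusted p 0.0089) and had a change of 0.43 in WT (adjusted p 0.060, and 0.034 with mouse as a replicate block or 0.00056 to 0.025 with KO numbers exchanged in that block). The KO call of day 10 against day 8 was lost without number 67 (0.36, adjusted p 0.12) and without number 68 (0.64, adjusted p 0.084). It was also lost with only the groups compared (0.64, adjusted p 0.11). Between genotypes its log2 differences were -0.15, -0.11 and 0.071 on days 8, 9 and 10, none past the threshold, and their 95% intervals reached from -0.50 at the lowest to 0.42 at the highest.

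Atp6v0d2, the proton pump subunit, was the 1 member called between genotypes. WT libraries stood at 1330.5, 1459.8 and 1279 CPM on day 7, 835, 1039 and 894 on day 8, 874, 1201 and 1037 on day 9 and 891, 1206 and 922 on day 10. KO libraries stood at 1127, 853 and 1067 CPM on day 7, 717, 464 and 796 on day 8, 923, 445 and 691 on day 9 and 440.2, 1023 and 643 on day 10. KO lay under WT without overlap on days 7 and 8 and overlapped with WT on days 9 and 10. The log2 fold change of KO over WT was -0.49 on day 8 (SE 0.26), -0.60 on day 9 (SE 0.26) and -0.52 on day 10 (SE 0.26), with edgeR adjusted p of 0.86, 0.55 and 0.71. Over time, day 8 lay under day 7 without overlap in both genotypes, by log2 values of -0.56 in WT (SE 0.26, adjusted p 0.094) and -0.62 in KO (SE 0.26, adjusted p 0.062), neither past the threshold. Day 10 against day 7 was -0.43 in WT (adjusted p 0.21) and -0.53 in KO (adjusted p 0.12), and day 10 against day 8 was 0.13 and 0.092. In the replicate block with KO numbers exchanged, day 10 against day 7 was called in 5 of 8 orders in WT (adjusted p 0.0019 to 0.060). In KO it was called in all 8 (adjusted p 8.6e-05 to 0.014), and with a number left out it ran from -1.03 to -0.20. Day 10 against day 8 in KO was -0.50 without number 67 (adjusted p 0.0496). With KO numbers exchanged in the replicate block, day 8 against day 7 was called in all 8 orders in WT (adjusted p 0.00017 to 0.017) and in KO (adjusted p 3.1e-05 to 0.0077). The KO change was also called with DESeq2's Wald test, with no filter on low counts, with genes averaging at least 50 counts and without number 67, and the WT change with only the groups compared and without number 67. Averaged over days 8, 9 and 10, the log2 fold change of KO over WT was -0.53 (SE 0.15, 95% interval -0.85 to -0.22, adjusted p 0.048), or 0.69 of the WT level.

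That average treats 9 libraries against 9, from 6 mice, as independent, which can make its p too small, and the call was lost in several alternative fits. The adjusted p was 0.052 with DESeq2 size factors, 0.099 with only the groups compared, and 0.092, 0.33, 0.17 and 0.081 without mouse 63, 65, 66 or 68. With mouse as a replicate block it was 0.037, and 0.064 to 0.078 with the KO numbers exchanged. With counts of days 8 to 10 summed per labelled mouse, the KO sums of Atp6v0d2 stood at 702, 663 and 725 CPM and the WT sums at 899.7, 1189 and 975 CPM (log2 -0.55, adjusted p 0.037). With KO numbers exchanged the KO sums were 961, 464 and 705 CPM, the highest of them inside the WT range of 898 to 1187 CPM, and the adjusted p was 0.71 (log2 -0.52, 95% interval -1.13 to 0.086). Over the 4 orders it ran from 0.51 to 0.71. Without mouse 65 the log2 difference was -0.41 and without mouse 63 it was -0.62, so it stayed lower in KO in these fits.

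Acp5 and Ctsk, the phosphatase and the collagen-degrading protease, fell after day 7. Acp5 in WT stood at 193, 216 and 182 CPM on day 7, 53.9, 63.7 and 60.1 on day 8, 74.9, 83.2 and 80.3 on day 9 and 82.4, 79.9 and 78.2 on day 10. In KO it stood at 222, 131 and 226 CPM on day 7, 59.1, 35 and 79.2 on day 8, 83.5, 35.5 and 77.5 on day 9 and 37.6, 103 and 87.0 on day 10. Every library of days 8, 9 and 10 lay under every library of day 7. Acp5 fell from day 7 to day 8 by 1.73 on the log2 scale in WT (SE 0.33, edgeR adjusted p 0.00024) and by 1.74 in KO (SE 0.33, adjusted p 0.00024), to 0.301 and 0.299 of its day 7 level. On day 10 it was lower than on day 7 by log2 fold changes of -1.30 in WT (adjusted p 0.0035) and -1.35 in KO (adjusted p 0.0027). The calls of day 10 against day 7 were lost without mouse 65 in WT (log2 -1.21, adjusted p 0.056) and without number 64 in KO (log2 -0.91, adjusted p 0.052). With a number left out the KO value ran from -1.85 to -0.91.

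Ctsk took a similar course at a lower level. It stood in WT at 39.6, 39.9 and 42.3 CPM on day 7, 20.1, 24.7 and 25.6 on day 8, 21.2, 29.5 and 31.6 on day 9 and 17.6, 19.4 and 23.1 on day 10. The KO libraries had 38.3, 37.2 and 45.3 CPM on day 7, 22.5, 13.9 and 24 on day 8, 22.1, 13.2 and 23.1 on day 9 and 13.3, 22 and 16.9 on day 10. Day 7 lay above all later days in both genotypes without overlap. Ctsk fell from day 7 to day 8 by 0.79 on the log2 scale in WT (SE 0.22, edgeR adjusted p 0.0058, and 0.054 without mouse 63) and by 1.00 in KO (SE 0.22, adjusted p 0.00095). It was lower on day 10 than on day 7 by log2 fold changes of -1.02 in WT (adjusted p 0.0011) and -1.21 in KO (adjusted p 0.00025). Between genotypes the log2 difference of Ctsk was -0.50 on day 9 (95% interval -0.95 to -0.044, unadjusted p 0.033, adjusted p 0.55, and -0.28 without number 67) and -0.31 on the average of days 8 to 10 (adjusted p 0.18).

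Mmp9, the gelatinase, differed widely between mice of a group. In WT it stood at 78.0, 142 and 197 CPM on day 7, 73.2, 143 and 160.2 on day 8, 53.0, 81.7 and 75.5 on day 9 and 65.7, 76.8 and 86.6 on day 10. In KO it stood at 151, 97.0 and 151 CPM on day 7, 117, 112 and 151 on day 8, 119, 51.2 and 74.7 on day 9 and 37.2, 102 and 74.0 on day 10. The genotypes overlapped on every day. Its log2 change from day 7 to day 10 was -0.86 in WT (adjusted p 0.070, and 0.00086 to 0.012 with KO numbers exchanged in the replicate block) and -0.90 in KO (adjusted p 0.059, and 0.046 with mouse as a replicate block or 8.9e-05 to 0.0035 with KO numbers exchanged). The change from day 7 to day 8 was -0.15 in WT and -0.068 in KO, and both signs turned on the TPM scale, at 0.099 and 0.18.

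Itgb3, the integrin chain, fell with the enzymes. WT libraries had 126, 171 and 119 CPM on day 7, 49.5, 86.2 and 51.1 on day 8, 37.8, 60.5 and 44.2 on day 9 and 35.8, 67.5 and 45.8 on day 10. KO libraries had 115, 125 and 136 CPM on day 7, 51.2, 44.1 and 62.2 on day 8, 41.8, 27.5 and 36.1 on day 9 and 25.5, 46.4 and 31.8 on day 10. Mouse 65 was the highest WT library on every day, and day 7 lay above all later days in both genotypes. Itgb3 fell from day 7 to day 8 by 1.15 on the log2 scale in WT (SE 0.26, edgeR adjusted p 0.0012) and by 1.25 in KO (SE 0.26, adjusted p 0.00061). From day 7 to day 10 it fell by 1.48 in WT (SE 0.26, adjusted p 0.00018) and by 1.86 in KO (SE 0.26, adjusted p 2.3e-05). Its change from day 8 to day 10 was -0.33 in WT (adjusted p 0.36) and -0.60 in KO (adjusted p 0.095, and 0.026 with mouse as a replicate block or 0.00061 to 0.0040 with KO numbers exchanged in that block). The log2 difference between genotypes was -0.25, -0.44 and -0.52 on days 8, 9 and 10, and -0.40 on their average (adjusted p 0.14, and 0.041 with no filter on low counts). Without mouse 65 that average was -0.13 (adjusted p 0.74).

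Nfatc1, the transcription factor, went the other way by a small amount. It stood in WT at 78.3, 72.3 and 71.1 CPM on day 7, 79.9, 74.8 and 76.6 on day 8, 86.3, 75.7 and 80.6 on day 9 and 96.0, 85.3 and 97.3 on day 10. The KO values were 81.0, 90.0 and 86.4 CPM on day 7, 80.6, 103 and 77.0 on day 8, 82.5, 102 and 83.4 on day 9 and 106, 88.5 and 99.8 on day 10. On day 7 KO lay above WT without overlap, and on the later days the genotypes overlapped. The log2 fold change of KO over WT was 0.17, 0.14 and 0.079 on days 8, 9 and 10, none past the threshold. On their average it was 0.13 (95% interval 0.010 to 0.25, edgeR unadjusted p 0.035, adjusted p 0.23). Nfatc1 rose from day 7 to day 10 in WT by 0.33 on the log2 scale (SE 0.10, edgeR adjusted p 0.014), a call lost without mouse 63 (adjusted p 0.065) or 66 (adjusted p 0.17). In KO the change was 0.19 (adjusted p 0.14). Over the 15 alternative fits the KO value ran from 0.093 to 0.50 and was called in 4, with adjusted p down to 0.0075. In the replicate block with KO numbers exchanged it was called in 4 of the 8 orders (adjusted p 0.016 to 0.074). Nfatc1 also rose from day 8 to day 10 in WT (0.27, SE 0.10, adjusted p 0.049), a call lost in 9 of the alternative fits with adjusted p up to 0.28. From lowest to highest library Nfatc1 spanned 1.49-fold, the least of the 8 tested genes, against 13.9-fold for Ocstamp and 6.69-fold for Itgb3.

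Counted together, 3 of 7 members were called between day 8 and day 7 in WT, all lower (Acp5, Ctsk and Itgb3), against 43.4% of all genes called and 22% called lower. In KO the same 3 genes of 7 were called lower, against 42.0% of all genes called and 20.9% called lower. Ocstamp is left out of these counts because day 7 chose it, and its log2 values were -1.90 in WT and -0.11 in KO. Between day 10 and day 7, 5 of 7 members were called in WT (Dcstamp and Nfatc1 higher, Acp5, Ctsk and Itgb3 lower), against 37.0% of all genes called, 18.9% higher and 18.1% lower, and 4 of 7 in KO (Dcstamp higher, Acp5, Ctsk and Itgb3 lower), against 36.8% of all genes called, 19.7% higher and 17.1% lower. Between day 10 and day 8 the count was 1 of 8 in WT (Nfatc1 higher; 30.7% of all genes) and 1 of 8 in KO (Dcstamp higher; 25.4% of all genes). With mouse as a replicate block it was 2 of 8 in each (the share of all genes in that fit is not given here), adding Dcstamp in WT and Itgb3 in KO. With KO numbers exchanged in that block it was 3 to 5 of 8 in WT and 3 to 6 of 8 in KO over the 8 orders, where 5222 to 5941 and 4490 to 5214 of 14535 genes were called. Dcstamp higher and Mmp9 lower were called in all 8 orders in both genotypes, Nfatc1 higher in all 8 in WT and Itgb3 lower in all 8 in KO. The single exchange first named gave the 5 and the 6. Between day 8 and day 7 that block called 4 to 5 of 7 members in each genotype, adding Atp6v0d2, lower, in all 8 orders (6986 to 7560 genes in WT and 6714 to 7262 in KO). Between day 10 and day 7 it called 6 to 7 of 7 in each (5975 to 6490 and 5976 to 6480 genes). These contrasts share their day 8 or day 7 libraries with each other. In TPM, the median over all genes of the log2 change from day 7 to day 8 was 0.17 in WT and 0.17 in KO, and from day 7 to day 10 0.21 and 0.25, against -0.0038, 0.0018, -0.015 and 0.0033 in edgeR. On that scale 74.7% of the calls of WT and 75.7% of those of KO from day 7 to day 8 were higher, where edgeR had 3120 higher and 3195 lower in WT and 3071 and 3039 in KO. From day 7 to day 10 the higher share was 84.4% in WT and 85.9% in KO in TPM (edgeR 2746 higher and 2630 lower, and 2870 and 2483), and from day 8 to day 10 it was 67.2% in KO (edgeR 1984 and 1707). Acp5, Ctsk and Itgb3 stayed lower and past the threshold in TPM from day 7 to day 8 and from day 7 to day 10 in both genotypes.

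**Figure D3:**
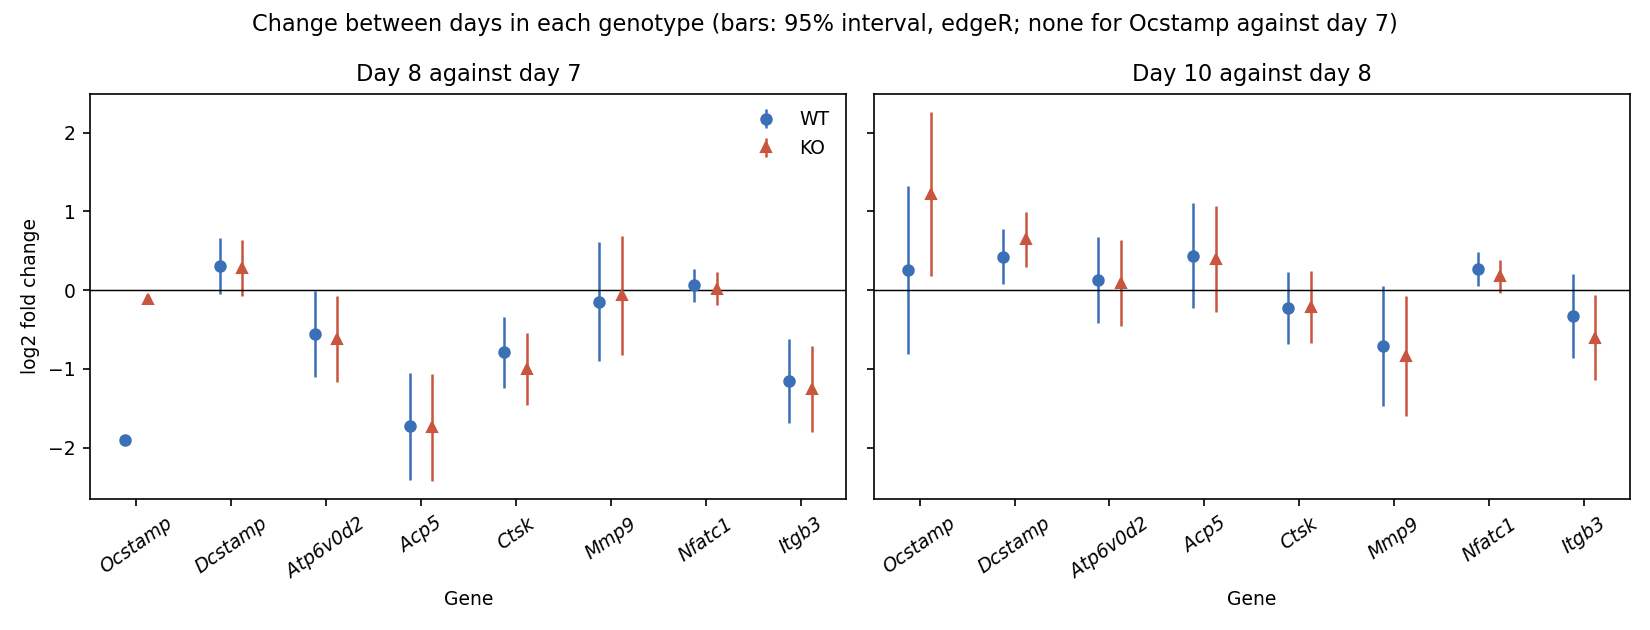
Log2 fold change of each tested gene from day 7 to day 8 (left) and from day 8 to day 10 (right) in WT (circles) and KO (triangles), with 95% intervals from edgeR and none for Ocstamp against day 7. On the left Acp5 stands near -1.7, Itgb3 near -1.2 and Ctsk near -0.9 in both genotypes, and on the right most intervals cross 0.

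In bulk samples, fewer cells of a type and less RNA per cell cannot be told apart, and day 8 and the first day after the second replating cannot be told apart either. Marker genes of other cells moved over the same days. Of 10 macrophage markers, 4 were higher and 0 lower from day 7 to day 8 in WT, and 0 were higher and 7 lower from day 8 to day 10. In KO the counts were 2 higher and 1 lower, and then 0 higher and 4 lower. Their summed level in WT was 6269.7 to 6883 TPM on day 7, 6790.0 to 7389.8 on day 8 and 4481 to 4731 on day 10. In KO the macrophage sum was 6006 to 7468, 5548 to 8353 and 4369 to 6226 TPM on those days, and Cd163, a macrophage scavenger receptor, stayed at 0.26 TPM or less in all libraries. Of 10 dendritic cell markers, 1 was higher from day 7 to day 8 and 7 from day 8 to day 10 in WT, with sums of 2289 to 3046, 3787 to 4658 and 6972 to 9587 TPM. In KO 1 was higher from day 7 to day 8 and 5 from day 8 to day 10, with sums of 2861 to 3978, 3454 to 7347 and 5961 to 13218 TPM. Of 10 neutrophil markers, 0 were higher and 3 lower from day 7 to day 8 in WT and 0 higher and 5 lower in KO, and then 6 and 3 were higher and 0 lower from day 8 to day 10. The neutrophil sum in WT was 5617 to 11419.5 TPM on day 7, 7955 to 10596 on day 8 and 17302 to 23770.3 on day 10, and in KO 7954 to 22574, 9180.2 to 15229.8 and 11179 to 21455 TPM. Monocyte markers, 2 higher and 3 lower of 7 from day 7 to day 8 in WT and 1 higher and 4 lower in KO, summed to 618.5 to 792 TPM and then 319 to 324 TPM in WT, and to 844 to 965 TPM and then 265 to 543 TPM in KO. The part of these cells in the fall of Acp5, Ctsk and Itgb3 was not tested. Bone-forming and stromal markers, 5 of 10 of which passed the filter, summed to 12.4 to 36.2 TPM over all groups. Runx2, a transcription factor, stood at 8.62 to 16.5 TPM, and Col1a1, a collagen chain, reached 14.2 TPM. Bglap was at 0 in 21 libraries, Ibsp in 20 and Tnfsf11, which encodes RANKL, in 13.

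Between genotypes on day 7, Ocstamp and Atp6v0d2 lay lower in KO without overlap, and Nfatc1 lay above WT without overlap. On that day 14.2% of all genes lay lower without overlap and 11.9% higher, and nothing is read from this count, because the day 7 genotype difference of Ocstamp led to the choice of these genes. That comparison is therefore described without a test for every member, while other contrasts with day 7 leave out Ocstamp, the others having been picked by name. The day 7 log2 differences of the others were -0.13 for Dcstamp, -0.029 for Acp5, -0.013 for Ctsk, -0.066 for Mmp9 and -0.15 for Itgb3, beside -0.42 for Atp6v0d2 and 0.22 for Nfatc1. On day 8 the only member without overlap was Atp6v0d2, which was lower, against 9.39% of all genes without overlap, 4.99% lower and 4.40% higher. On days 9 and 10 all 8 tested members overlapped, against 14.1% of all genes without overlap on day 9 (7.62% higher and 6.47% lower) and 10.4% on day 10 (5.47% higher and 4.97% lower).

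In the edgeR test 0 of 8 members were called between genotypes on day 8 (0.00688% of all genes), 0 of 8 on day 9 (0.00688%) and 0 of 8 on day 10 (0.0138%). At an unadjusted p under 0.05 the counts were 0, 2 (Atp6v0d2 and Ctsk) and 0 members, against 859, 1185 and 1061 of 14535 genes. With DESeq2's Wald test the counts were 0 on each of these days as well. Over the average of days 8 to 10, 1 of 8 members was called, Atp6v0d2, against 4.46% of all genes called, 1.82% lower and 2.64% higher. An unadjusted p under 0.05 was found for 4 of 8 members (Atp6v0d2, Ctsk and Itgb3 lower, Nfatc1 higher) and 2670 of 14535 genes. Over all genes edgeR had 383 higher and 265 lower there, against 630 and 177 on the TPM scale, where 78.1% were higher. With counts summed per mouse and KO numbers exchanged, 1 of the 14535 genes was called and no member, in each of the 4 orders. The interaction of genotype with the change from day 8 to day 10 was called for 0 of 8 members (0.00% of all genes; 0 members and 326 genes at an unadjusted p under 0.05), and its log2 values ran from -0.28 for Itgb3 to 0.96 for Ocstamp.

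**Figure D4:**
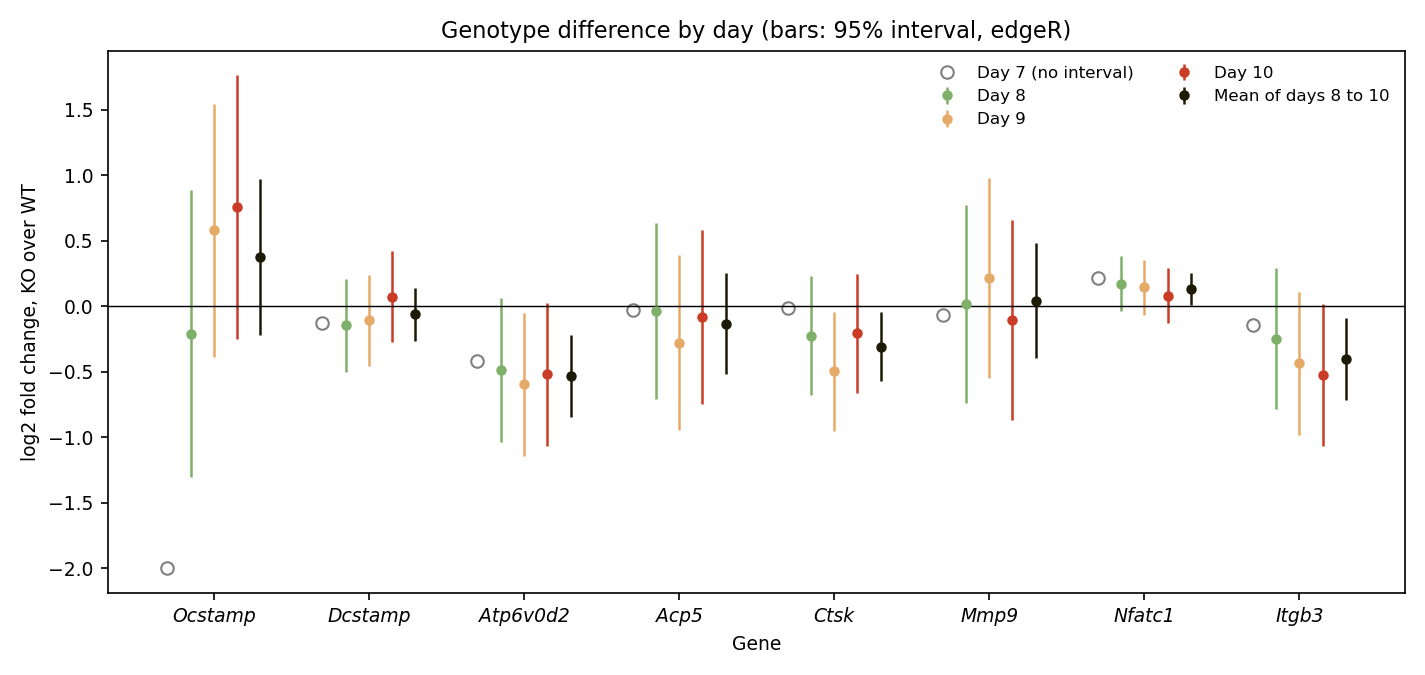
Log2 fold change of KO over WT for the 8 tested genes, on day 7 (open circles, with no interval because the Ocstamp difference of that day led to the choice of genes), days 8, 9 and 10 and their average (filled, with 95% intervals from edgeR). Atp6v0d2 lies under 0 on every day with an average of -0.53, and Ocstamp goes from -2.0 on day 7 to 0.75 on day 10. Nfatc1 stays slightly above 0 with an average of 0.13, and Dcstamp stays close to 0.

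The spread among the 3 libraries of a day was larger in KO than in WT on every day for Acp5, Atp6v0d2 and Nfatc1, smaller on every day for Itgb3, and not of 1 direction for the other members. The SD of Acp5 in KO was 54, 22, 26 and 34 CPM on days 7 to 10, against 18, 4.9, 4.2 and 2.1 CPM in WT. That of Atp6v0d2 was 144, 173, 239 and 296 CPM in KO and 93, 105, 163 and 174 CPM in WT. That of Itgb3 was 10.5, 9.1, 7.2 and 10.7 CPM in KO and 28, 21, 12 and 16 CPM in WT. For Mmp9 the SD was smaller in KO on days 7 and 8 (31 and 22 CPM against 59 and 46) and larger on days 9 and 10 (34 and 32 CPM against 15 and 10). In both genotypes 1 library was often the lowest for most members at once, which was not counted over all genes. In WT mouse 63 was lowest for 4 of 8 members on day 7, as was mouse 66 for the other 4, and mouse 63 was lowest for 7 on day 8, 6 on day 9 and 6 on day 10. In KO the library labelled 67 was lowest for 6 of 8 members on day 7, for 7 on day 8 and for 7 on day 9, and the library labelled 64 was lowest for 7 on day 10. All 4 of these KO libraries had Ddx3y near 0. On day 9 the library labelled 67 had 0.429 of the WT mean for Atp6v0d2, 0.446 for Acp5 and 0.481 for Ctsk. On day 10 the library labelled 64 had 0.437, 0.469 and 0.662 of the WT mean for the same genes. Nfatc1 had its highest KO value of the day in each of these 4 libraries, at 1.26 times the WT mean on day 9 and 1.14 times on day 10. The summed dendritic cell markers also spread more in KO, from 4338 to 10632 TPM on day 9 against 5652 to 6268 TPM in WT, and their part in the spread of the members was not tested.

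**Figure D5:**
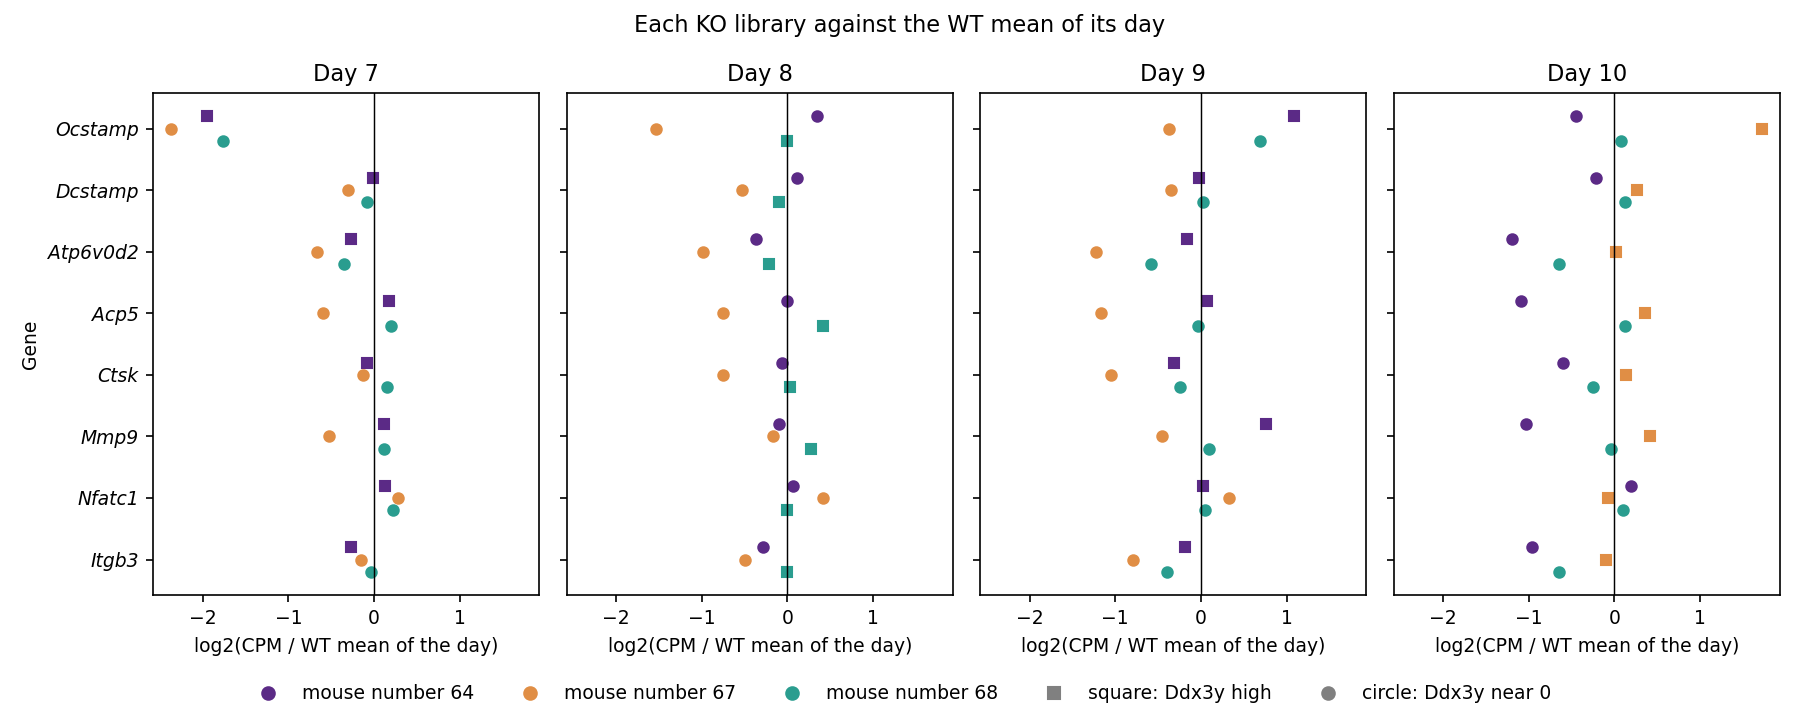
Each KO library against the WT mean of its day, as log2 of the CPM ratio on the horizontal axis, by labelled mouse (colour), with squares for libraries with high Ddx3y and circles for those with Ddx3y near 0. Number 67 lies to the left for most genes on days 7 to 9 and number 64 on day 10, where number 67 carries high Ddx3y.

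Across the 24 libraries, taken as a description since they share mice and days, 9 of the 28 pairs of tested members had a Pearson r of log2 CPM above 0.5 and 11 had one below 0. The highest were Acp5 with Ctsk (0.89) and Ctsk with Itgb3 (0.88), and the lowest Atp6v0d2 with Nfatc1 (-0.76). Once group means were taken off, 21 pairs had r above 0.5 and the 7 pairs with Nfatc1 were below 0. Ocstamp and Atp6v0d2 then had r = 0.81, against 0.46 before, and Dcstamp and Ctsk 0.81, against -0.37 before. Pairs of all genes were not counted in this way, so these numbers are not read as particular to the members.

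Among 10572 other genes with a symbol and enough counts, those most like Ocstamp over the 24 libraries were Pgap2 (r = 0.83), Slc12a4 (0.80), Mmp13 (0.78), Cttn (0.74) and Kcnn4 (0.74). With group means taken off their r with Ocstamp was 0.73, 0.68, 0.81, 0.74 and 0.69. Mmp13 encodes a collagenase, Cttn the actin-binding protein cortactin and Kcnn4 a potassium channel. Those most like Acp5 were Idh1 (0.98), Cxcl14 (0.97), Pou6f1 (0.96), Smpdl3a (0.96) and Cd22 (0.96), where Idh1 encodes a cytosolic isocitrate dehydrogenase and Cxcl14 a chemokine. The likeness to Acp5 was higher than any between 2 members.

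Other genes of the pathway were counted in 5 lists with 73 genes, of which 71 were tested, and up to 4 per list are named by a rule of size. Of all genes 16.2% were called higher and 14.5% lower from day 8 to day 10 in WT, and 13.6% higher and 11.7% lower in KO. RANK and DAP12 signalling (18 of 18 tested) was called 0 higher and 8 lower from day 8 to day 10 in WT and 0 higher and 7 lower in KO, with medians of -0.24 and -0.24 on the log2 scale beside 0.0067 and 0.0060 for all genes. Fos, an AP-1 subunit without which osteoclasts do not form, fell over that time by 1.10 in WT and 0.91 in KO (edgeR adjusted p 0.00395 and 0.015). The day 8 level of Fos was 95.8 ± 9.2 CPM for WT against 156 ± 29 CPM for KO, and its day 10 level 44.8 ± 5.4 against 83.3 ± 12 CPM (SD, n = 3 each). Nfkb2, a subunit of the noncanonical NF-kB branch, fell by 0.65 in WT and by 0.63 in KO (adjusted p 0.00028 and 0.00058), and its partner Relb fell by 0.62 and 0.72 (adjusted p 0.0086 and 0.0041). Mitf, a transcription factor that acts with PU.1 on Acp5 and Ctsk, fell by 0.60 in WT (adjusted p 0.019) and had a change of -0.50 in KO (adjusted p 0.054).

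Of the 16 genes for acid secretion and matrix resorption, all tested, 3 were called lower and 0 higher from day 8 to day 10 in each genotype, beside 14.5% of all genes lower in WT and 11.7% in KO. Mmp14, a membrane-bound collagenase, fell by 0.88 in WT and by 0.90 in KO (edgeR adjusted p 3.4e-05 and 4.7e-05). Clcn7, the lysosomal chloride and proton exchanger, fell by 0.31 in WT (adjusted p 0.036) and Snx10, a sorting nexin needed for resorption, by 0.36 in KO (adjusted p 0.021). Car2, the carbonic anhydrase that supplies protons, went from 8.46 ± 0.92 to 10.7 ± 0.69 CPM between days 7 and 8 for WT and from 3.97 ± 0.58 to 19.9 ± 13 CPM for KO (SD, n = 3 each). It rose from day 7 to day 8 in KO (log2 2.33, SE 0.31, adjusted p 5.5e-06) and had a change of 0.33 in WT (adjusted p 0.38). From day 7 to day 8 the list had 1 higher and 2 lower in WT (21.5% of all genes higher and 22% lower) and 1 higher and 4 lower in KO (21.1% and 20.9%).

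The other fusion genes, 14 of 15 tested, had 2 higher and 1 lower from day 8 to day 10 in WT (16.2% and 14.5% of all genes) and 1 higher and 1 lower in KO (13.6% and 11.7%). Cdh1, which encodes E-cadherin, rose from day 7 to day 10 by 2.83 on the log2 scale in WT and by 2.95 in KO (edgeR adjusted p 6.1e-05 and 4.6e-05), from 23.2 ± 3.3 to 165 ± 32 CPM in WT (SD, n = 3 each). Cd44, a hyaluronan receptor, rose from day 7 to day 8 by 0.48 in WT and by 0.50 in KO and then fell by 0.34 in each. Cd200, a surface ligand that takes part in fusion, had log2 changes of -1.59 in WT and -1.24 in KO from day 7 to day 8 (adjusted p 0.00031 and 0.0030), as Acp5 and Itgb3 also fell. Sh3pxd2a, a podosome scaffold, fell by 0.80 and 0.65 and then rose by 0.74 and 0.35 between days 8 and 10. Of 14 podosome and sealing zone genes, 1 was higher and 2 lower from day 8 to day 10 in each genotype, beside 16.2% and 14.5% of all genes in WT and 13.6% and 11.7% in KO. These were Gsn (gelsolin), rising by 0.26 in each and Myo10 and Itgb1 falling by 0.80 and 0.34 in WT and by 0.77 and 0.32 in KO.

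The list of osteoclast repressors, 9 of 10 tested, had 3 higher and 1 lower from day 8 to day 10 in each genotype, beside 16.2% and 14.5% of all genes in WT and 13.6% and 11.7% in KO. Bcl6, a transcriptional repressor of Nfatc1 and Ctsk, fell from day 7 to day 8 by 2.38 in WT and by 2.00 in KO (edgeR adjusted p 2.0e-09 and 2.0e-08) and then rose by 1.01 and 0.84. Irf8, which holds back osteoclast formation and favours dendritic cells, fell by 1.15 and 1.10 and then rose by 0.35 and 0.28. Cebpa, a myeloid factor that can also favour osteoclast formation, fell by 0.94 and 1.13 and then rose by 0.61 and 0.43. Rbpj, the Notch effector, moved the other way, up by 0.47 and 0.76 and then down by 0.39 and 0.34. Group means of Bcl6 (13.0 CPM for WT, 15.1 CPM for KO) and of Irf8 (107 and 115 CPM) were lowest on day 8, as were those of Acp5.

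On the average of days 8 to 10 the same lists were counted between genotypes, where 4.46% of all genes were called, 2.64% higher and 1.82% lower. RANK and DAP12 signalling had 2 higher and 0 lower of 18, acid secretion 1 and 1 of 16, fusion 0 and 1 of 14, podosomes 1 and 0 of 14 and repressors 1 and 1 of 9. Fos was higher in KO by 0.75 (edgeR adjusted p 0.0075), Nfkb2 by 0.29 (adjusted p 0.014), Car2 by 0.62 (adjusted p 0.036), Rbpj by 0.22 (adjusted p 0.018) and Ptk2b, which encodes the adhesion kinase Pyk2, by 0.16 (adjusted p 0.039). Cd200 was lower by a log2 fold change of -0.74 (adjusted p 0.022) and Cebpa by -0.23 (adjusted p 0.032). As for Atp6v0d2, these p treat libraries of the same mouse as independent, which can make them too small. With counts summed per mouse and KO numbers exchanged, 1 of 14535 genes was called in each order, so at least 6 of these 7 calls were lost there. Over the same average 1 of 10 macrophage, 2 of 10 dendritic cell and 1 of 7 monocyte markers were called higher in KO and 0 lower, with median log2 values of 0.097, 0.39 and 0.11. Of 10 neutrophil and 5 tested bone-forming and stromal markers 0 were called, with medians of -0.060 and -0.77. Their part in the lower Atp6v0d2 was not tested.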

How the data were processed

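RNA from floating bone-marrow-derived dendritic cells was sequenced as poly(A)-selected stranded libraries, per the labels' protocols. The authors deposited 1 table of raw read counts per gene and 1 table of TPM per gene, with a table of gene symbols. Per the submitters' processing notes FastQC 0.11.9, STAR 2.6.1, DESeq2 1.22.2 and the build mm10 were used, and the counting step is not given in the sources used here. TPM sums to the same total in each library, so a few abundant genes can shift all others. Depth was 19952047 to 31049798 counts per library, and intervals at a floor of 3 counts cover counting error only. Counts of libraries of 1 group differed beyond sampling noise in all 24 pairs (chi-square per degree of freedom 7.66 to 139).

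From the counts, 14535 of 55487 genes passed edgeR's filterByExpr by group. They were scaled by TMM and fitted with edgeR 4.0.16 (quasi-likelihood, R 4.3.3) with 1 coefficient per genotype and day over all 24 libraries, and p-values were adjusted by Benjamini-Hochberg over all 14535 genes. CPM values use TMM-scaled library sizes. Alternatives used DESeq2 1.42.0, limma 3.58.1 on log2(TPM + 1) and log2(TPM + 0.1), other filters, only the groups compared, each mouse number left out, and mouse as a replicate block, as labelled and with KO numbers exchanged. The fit was tested on simulated data. Figures were drawn with matplotlib 3.10.9. Positions come from GENCODE M21, in which 55394 of 55487 identifiers were found without their version, and promoter windows from RefSeq.

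Per the labels, libraries of different days with 1 mouse number come from the same animal. Ddx3y goes against this in KO on days 8 and 10. Same-number libraries deviated together in WT (mean r 0.62, 0.49 and 0.37 for mice 63, 65 and 66) and not in KO (-0.14, -0.0061 and 0.13 for 64, 67 and 68).

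The 10 members, the gene lists and the tests were chosen with earlier results of these data known. Genes named besides the members are up to 4 per pathway list with the largest change among those past the threshold in the averaged genotype contrast or from day 8 to day 10, and 5 each most like Ocstamp and Acp5 by Pearson r of log2 CPM (prior count 2). Arpc4, Ddx3y and marker genes are named as checks.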

Additional observations from a re-analysis of the deposited data

How the results depend on the processing

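Each comparison was refitted in 15 alternatives and the average of days 8 to 10 in 17, of which 14 were planned, with earlier results of these data known, and 3 added after seeing the data. Further orders of KO numbers, also added, are counted apart. Of the 18 called member changes, 11 kept their call in every alternative run for them, and 0 of the 18 reversed. Of 66 uncalled changes, 43 were never called. Of 1276 values in all, 49 changed sign, and the cause was not tested. Ocstamp, with 14 to 186 counts per library, is the member that depth limits most, beside Oscar and Calcr, which could not be tested.

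The count of members called on the average of days 8 to 10, 1 in the report, was 0 with DESeq2 size factors, with only the groups compared, with the replicate block with KO numbers exchanged and with counts summed per mouse with KO numbers exchanged. It was 2 with no filter on low counts and 2 with counts summed per mouse, where 240 of 14535 genes were called, and 0 to 1 with a mouse number left out. On day 10 it was 0 to 1 with a number left out, the 1 being Atp6v0d2 without number 67. From day 8 to day 10 in WT the count of 1 became 0 with DESeq2 size factors, 2 with genes averaging at least 50 counts, 4 with only the groups compared, 2 with the replicate block, 3 to 5 with the block exchanged and 0 to 2 with a number left out. In KO over the same days it became 2 with DESeq2's Wald test, 4 with no filter, 0 with only the groups compared, 2 with the replicate block, 3 to 6 with the block exchanged, with 4 and 5 among them, and 0 to 5 with a number left out, the 5 without number 67. From day 7 to day 8 the count of 3 became 4 to 5 with the block exchanged in each genotype. From day 7 to day 10 in KO the count of 4 became 6 to 7 with the block exchanged and 3 to 7 with a number left out, the 7 without number 67. The replicate block as labelled also called Mmp9 from day 7 to day 10 in KO (log2 -0.87, adjusted p 0.046) and changed no other call beyond those given in the report. Apart from the exchanged block and the summed counts, the number of all genes called is not given for the fits of this paragraph. Their counts of members are therefore not set against all genes, and a rise or fall in them is not read as a result about the members.

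Uncalled values that changed sign with a number left out ran as follows, as lowest and highest log2 values. On day 8 KO against WT was -0.61 to 0.20 for Ocstamp, -0.30 to 0.028 for Dcstamp, -0.33 to 0.23 for Acp5, -0.26 to 0.24 for Mmp9 and -0.39 to 0.067 for Itgb3. On day 9 it was -0.23 to 0.0051 for Dcstamp, -0.50 to 0.023 for Acp5 and -0.16 to 0.47 for Mmp9. On day 10 it was -0.16 to 1.14 for Ocstamp, -0.031 to 0.21 for Dcstamp, -0.36 to 0.26 for Acp5 and -0.45 to 0.22 for Mmp9. On the average it was -0.15 to 0.015 for Dcstamp and -0.14 to 0.18 for Mmp9. In KO the change from day 7 to day 8 was -0.16 to 0.085 for Mmp9 and -0.077 to 0.10 for Nfatc1, and that from day 8 to day 10 was -0.11 to 1.99 for Ocstamp, -0.50 to 0.41 for Atp6v0d2, -0.17 to 0.74 for Acp5 and -0.64 to 0.045 for Ctsk. Of these, Atp6v0d2 passed the threshold in the turned direction, at -0.50 without number 67 (adjusted p 0.0496). The interaction was -0.36 to 1.74 for Ocstamp, -0.059 to 0.51 for Dcstamp, -0.61 to 0.29 for Atp6v0d2, -0.59 to 0.32 for Acp5, -0.40 to 0.28 for Ctsk, -0.56 to 0.15 for Mmp9 and -0.19 to 0.11 for Nfatc1. On the TPM scale, with pseudocounts of 1 and 0.1, Dcstamp on the average was 0.0016 and 0.0011, and Mmp9 from day 7 to day 8 was 0.099 and 0.10 in WT and 0.18 and 0.18 in KO. Mmp9 on the average was -0.026 with counts summed per mouse, and Nfatc1 from day 7 to day 8 in KO was -0.0093 with genes averaging at least 50 counts. With the replicate block the interaction was 0.025 for Atp6v0d2 and 0.061 for Acp5. With KO numbers exchanged, the further orders turned the interaction of Acp5 to 0.033 and of Ctsk to -0.0054 in 1 order each, and Mmp9 on the average of summed counts to -0.0053, -0.0044 and -0.0036, and no called change reversed.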
